A study of Mus musculus with 4 samples.

Results

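Monocytes and tumour-associated macrophages (TAM) were compared between a Lewis lung carcinoma (LLC) library and a B16 melanoma library, both from C57BL/6J mice. LLC is a carcinoma line and B16 a melanoma line, and both grow as transplanted tumours in this strain. The cells were those of the authors' monocyte and macrophage table whose sample label was the CITE-seq LLC library (10131 cells) or the B16 library (2297 cells), which is 12428 of its 20583 cells. The libraries were compared over all cells and within the 4 of 11 annotated cell types that held at least 50 cells in both. Those types were Immature TAM-1 (76 LLC and 518 B16 cells), Monocytes (835 and 396), Mono/TAM IFN (858 and 158) and Mono/TAM Hypoxic (570 and 213). CITE-seq counts antibody-bound tags beside the RNA of each cell, and the B16 library held RNA alone. Each library came from 1 pool of 3 mice with subcutaneous tumours on the 10x Genomics platform, and neither treatment, age nor sex was given in the sources used here. The remaining cells came from an LLC library of F11r fl/fl LysM-Cre- mice, which is not of the matched strain and serves for side values.

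With 1 library per tumour there was no replicate check, and no test was made. The tumour, the library type and the sequencing depth changed together and cannot be told apart. Median depth was 4546 unique molecular identifiers (UMIs, counted RNA molecules) per cell in LLC and 9250 in B16, from 57060792 and 24785633 UMIs in all. Expression was taken as the UMIs of a gene summed over the cells compared and scaled to 1000000 UMIs of those cells (CPM). A gene was measured at 20 or more UMIs over both libraries, and "higher" or "lower" always means LLC against B16 by at least 1.5-fold. Intervals in brackets are exact 95% intervals that cover counting error only. In sums over all cells, a different makeup of cell types and a different level per cell cannot be told apart, so values within cell types stand beside them.

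Macrophages in tumours arise largely from blood monocytes, which mature under signals from the tumour and from other immune cells. Interferon-gamma, made by T cells and NK cells, acts in part through IRF1 to switch on guanylate-binding proteins, the chemokines CXCL9 and CXCL10, which draw T cells through CXCR3, and the MHC class II transactivator CIITA. CD40 on these cells is the receptor for CD40 ligand, and CD40 agonists were the subject of the study that deposited the libraries.

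The results below turn on interferon targets and on MHC class II genes, so the promoters of 7 of them are shown. Each sequence is the 250 bases before the RefSeq start (GRCm38.p6), read 5′ to 3′ on the strand of the gene. For Cxcl9, Gbp2, Cxcl10, Irf1 and Serpina3g, capitals mark an interferon-stimulated response element (ISRE) core, GAAANNGAA or TTCNNTTTC on the other strand, or a gamma-activated site (GAS), TTCNNNGAA. For H2-Aa and H2-Eb1, capitals mark the Y box, CCAAT or ATTGG on the other strand.
Cxcl9, chr5:92328080-92328329, minus strand: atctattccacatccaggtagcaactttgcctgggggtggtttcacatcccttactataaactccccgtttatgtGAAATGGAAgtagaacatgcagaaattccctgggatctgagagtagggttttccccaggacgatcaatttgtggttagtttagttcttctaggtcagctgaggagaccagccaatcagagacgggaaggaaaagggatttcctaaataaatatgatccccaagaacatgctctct
Gbp2, chr3:142620413-142620662, plus strand: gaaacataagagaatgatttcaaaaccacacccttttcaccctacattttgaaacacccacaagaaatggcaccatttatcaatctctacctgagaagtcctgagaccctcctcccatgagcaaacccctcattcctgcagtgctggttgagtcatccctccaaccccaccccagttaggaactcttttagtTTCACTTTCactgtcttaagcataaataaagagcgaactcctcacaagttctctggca
Cxcl10, chr5:92348890-92349139, minus strand: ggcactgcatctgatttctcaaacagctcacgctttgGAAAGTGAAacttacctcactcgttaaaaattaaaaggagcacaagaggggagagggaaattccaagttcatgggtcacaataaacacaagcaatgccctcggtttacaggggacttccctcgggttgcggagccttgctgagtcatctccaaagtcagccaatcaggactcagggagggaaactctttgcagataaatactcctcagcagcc
Irf1, chr11:53769764-53770013, plus strand: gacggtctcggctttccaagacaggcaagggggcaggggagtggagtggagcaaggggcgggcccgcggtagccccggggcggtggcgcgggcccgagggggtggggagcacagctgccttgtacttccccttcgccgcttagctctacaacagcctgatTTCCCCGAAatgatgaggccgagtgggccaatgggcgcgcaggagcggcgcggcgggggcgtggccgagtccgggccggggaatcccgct
Serpina3g, chr12:104235897-104236146, plus strand: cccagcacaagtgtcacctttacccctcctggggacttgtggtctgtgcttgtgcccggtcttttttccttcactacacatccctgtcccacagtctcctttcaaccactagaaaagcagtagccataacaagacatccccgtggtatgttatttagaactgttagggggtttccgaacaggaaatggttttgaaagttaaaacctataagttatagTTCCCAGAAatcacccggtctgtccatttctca
H2-Aa, chr17:34287824-34288073, minus strand: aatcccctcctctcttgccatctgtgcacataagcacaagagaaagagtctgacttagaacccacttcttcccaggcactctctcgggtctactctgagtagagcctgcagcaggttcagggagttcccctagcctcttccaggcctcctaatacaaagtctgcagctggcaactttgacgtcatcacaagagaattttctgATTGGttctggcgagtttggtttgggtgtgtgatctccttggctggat
H2-Eb1, chr17:34305617-34305866, plus strand: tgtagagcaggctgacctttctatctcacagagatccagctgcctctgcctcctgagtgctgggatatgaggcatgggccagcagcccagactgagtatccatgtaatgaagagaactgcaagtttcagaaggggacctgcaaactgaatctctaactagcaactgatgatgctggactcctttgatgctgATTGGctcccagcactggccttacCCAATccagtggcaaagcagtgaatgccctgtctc
Cxcl9, Gbp2 and Cxcl10 each held 1 ISRE core, Irf1 and Serpina3g 1 GAS each, H2-Aa 1 Y box and H2-Eb1 2. Of the 16 promoters found for the interferon-gamma list, 10 (62.5%) held an ISRE core and 9 (56.2%) a GAS, against 6.83% and 6.07% of the 10016 promoters of all genes in the table. The Y box was in 7 of 9 promoters of the MHC class II list (77.8%) and in 36.8% of all promoters. ISRE and GAS matches can overlap each other. A match is a description of the letters and not a binding site.

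The macrophages of the libraries carried different names, the immature types included, while Monocytes, Mono/TAM IFN and Mono/TAM Hypoxic differed by 2.09-fold or less in share. TAM-1 held 41.0% of the B16 cells (38.9 to 43.0) and 4 LLC cells. TAM-2, TAM-3 and TAM-4 together held 57.1% of the LLC cells and 1.09% of the B16 cells. Immature TAM-1 was 30.1-fold (23.6 to 38.8) more frequent in B16, at 22.6% against 0.750%. Monocytes were 17.2% of B16 and 8.24% of LLC, and Mono/TAM Hypoxic 9.27% and 5.63%. The interferon type was the closest in size, with Mono/TAM IFN at 6.88% of B16 and 8.47% of LLC. The 4 shared types together made up 23.1% of LLC and 55.9% of B16. In the library of floxed mice Immature TAM-1 was 0.307% and TAM-1 0.0245% of the cells. Cell names are the authors' and may rest on the same RNA, so likeness within a name can be built in.

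**Figure D1:**
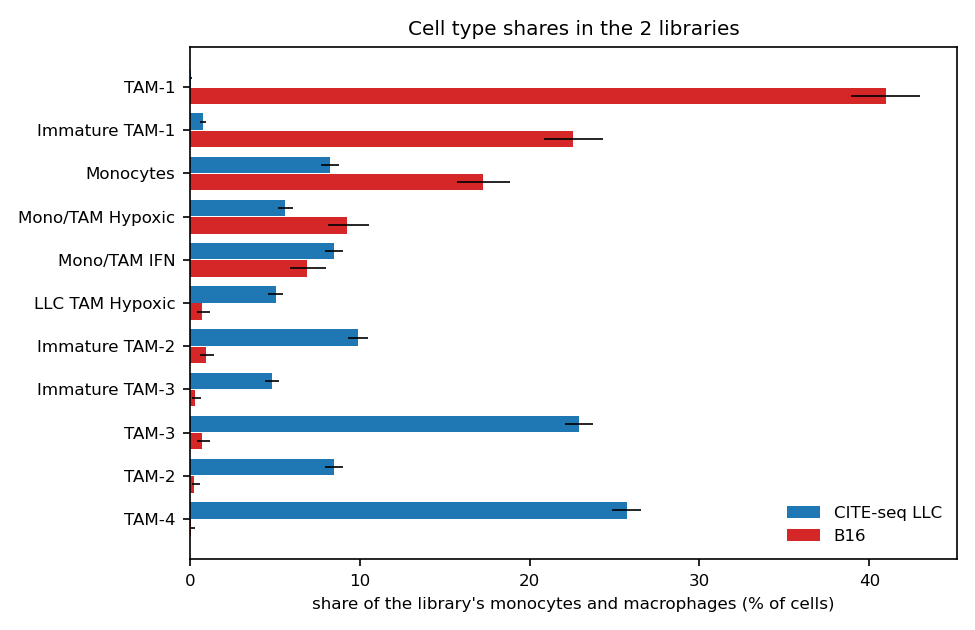
Share of each annotated cell type (% of the library's monocytes and macrophages) in the CITE-seq LLC library (blue) and the B16 library (red), with exact 95% intervals as black lines. TAM-1 and Immature TAM-1 sit at 41.0% and 22.6% in B16, while TAM-4 and TAM-3 sit at 25.7% and 22.9% in LLC.

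The names were checked against markers. All 8 hypoxia markers of Mono/TAM Hypoxic, all 8 interferon markers of Mono/TAM IFN and 8 of 9 markers of Monocytes were above the other cells of the same library, in both libraries. For Immature TAM-1 only 5 of 9 were, namely the MHC class II genes and Ccr2, while C1qa, C1qb, Apoe and Ms4a7 were below the other cells. RNA of other cells was uneven. T cell markers summed to 5.59 CPM in LLC and 43.2 in B16, B and plasma cell markers to 22.3 and 195, and melanocytic markers to 0 and 48.5, with all 6 melanocytic genes at 0 in LLC. NK, dendritic, endothelial and red cell markers also summed to more in B16. Other lists went the other way, with epithelial markers at 18.6 CPM in LLC and 2.30 in B16. The 1 platelet marker present stood at 32.5 and 7.95 CPM, mast cell and basophil markers at 14.0 and 0, and fibroblast markers at 7.01 and 0. Cells with a T, NK or B cell UMI made up 1729 of 2297 B16 cells and 1464 of 10131 LLC cells. Whether this RNA contributed to the results was not tested, beyond the values without those cells given below. The CITE-seq LLC and B16 libraries shared 6 cell barcodes.

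Of 11350 measured genes, 1127 were higher over all cells (9.93%) and 1252 lower (11%). The lowest of them by the naming rule was Ccl8, a monocyte-attracting chemokine, at 29.9 CPM in LLC against 1090.2 in B16, 36.5-fold lower (34.7 to 38.3). TAM-1 held 97.6% of the Ccl8 UMIs of B16. Vcam1, an adhesion molecule for leukocytes, was at 6.2 CPM in LLC and 156 in B16, and TAM-1 held 97.5% of its B16 UMIs. Lpl, which releases fatty acids from lipoproteins, was 19.4-fold lower (18.3 to 20.5), at 23.9 against 464 CPM. The other 7 genes named as lowest were Serpina3g, Clec4b1, Cxcl9, Iigp1, Il18bp, AW112010 and Cox4i2, and 4 of these (Serpina3g, Cxcl9, Iigp1 and Il18bp) are interferon-gamma targets.

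Of the 10 genes named as highest, Fcna, Ltc4s and Folr2 had 77.7% to 80.1% of their LLC UMIs in TAM-4. Fcna encodes the complement lectin ficolin A and stood at 65.6 CPM in LLC against 2.18 in B16, 30.1-fold higher (23 to 40.1). TAM-4 held 80.1% of its LLC UMIs. Ltc4s, the leukotriene C4 synthase, was 24.7-fold higher (20.1 to 30.5), with 77.7% of its LLC UMIs in TAM-4. Fn1, the matrix protein fibronectin, was at 1959.8 CPM in LLC against 241 in B16. The other 7 were Fxyd2, Cbr2, Pmepa1, Lyz1, Folr2, Fcrls and Pdpn. Lyz1 and Lyz2 are near-identical copies, as are many Gbp, Ifi200, Serpina3 and H2 genes, and counts could be split between copies.

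Within the shared cell types only part of this held. Among the 10 highest genes, 4 (Cbr2, Pmepa1, Fn1 and Fcrls) were higher in all 4 types, and Fcna and Fxyd2 could be measured in 1 type each. Among the 10 lowest, Lpl alone was lower in all 4 types, although in Mono/TAM IFN its log2 ratio was 0.14 without cells that carried a lymphocyte UMI. The Monocytes calls depended in part on which B16 cells were taken. Against the B16 cells annotated as classical monocytes alone, described below, the log2 ratios were -0.35 for Cbr2, -0.31 for Fn1 and -0.15 for Lpl. Those of Pmepa1 and Fcrls were 1.27 and 0.95. Vcam1 was lower in none and higher in Immature TAM-1 (30.2 against 12 CPM). Of the 487 genes higher over all cells and measured in all 4 types, 22 (4.52%) were higher in every type and 77 (15.8%) in none. Of the 448 lower genes, 32 (7.14%) were lower in every type and 100 (22.3%) in none. With the 4 shared types at equal weight in both libraries, the log2 ratio of Cxcl9 went from -4.36 to 0.91, that of Serpina3g from -4.80 to 0.21 and that of Vcam1 from -4.65 to 0.39. The same weighting brought Fn1 from 3.03 to 1.42 and Lpl from -4.28 to -2.31.

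**Figure D2:**
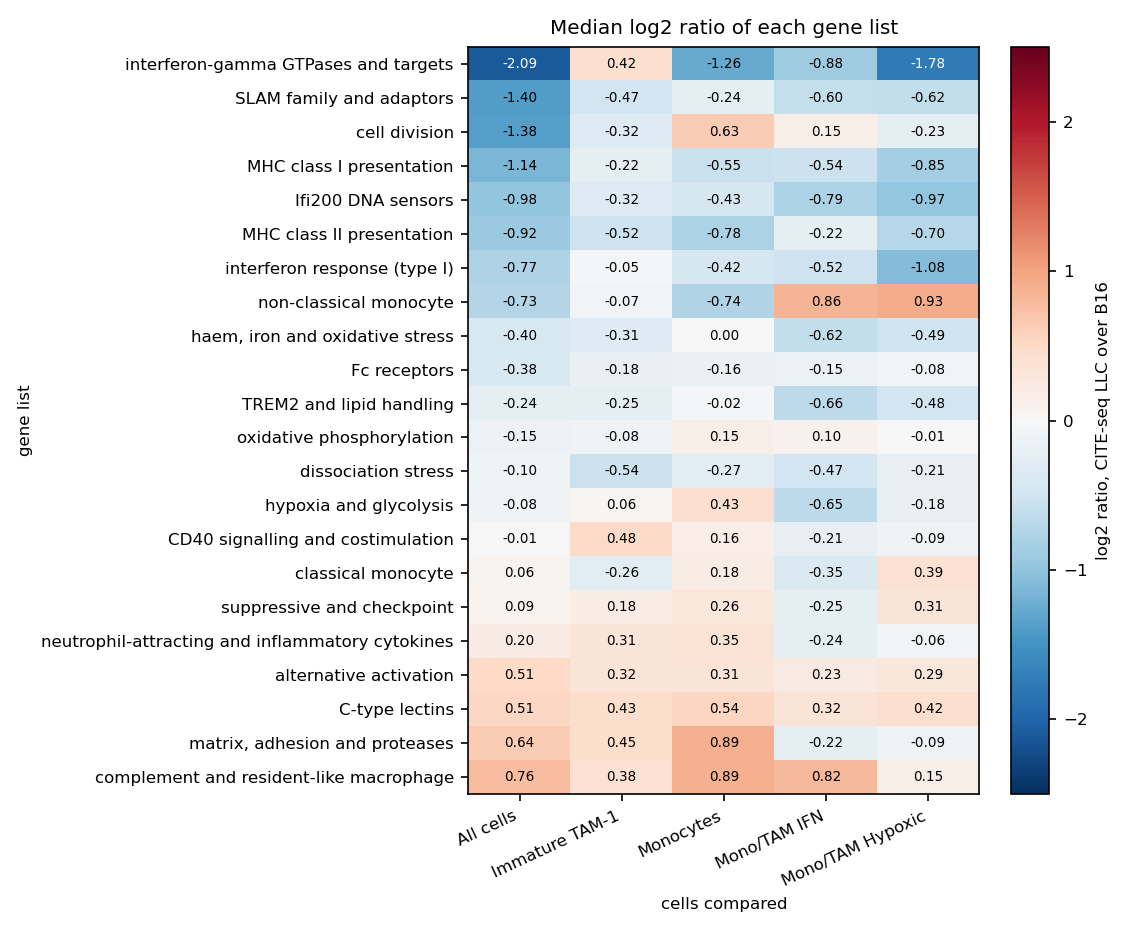
Median log2 ratio (CITE-seq LLC over B16) of the measured genes of each gene list drawn, over all cells and in the 4 shared cell types, with lists ordered by the value over all cells. The interferon-gamma list is at -2.09 over all cells and at 0.42 in Immature TAM-1, with -1.26, -0.88 and -1.78 in the other 3 types.

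The interferon-gamma list differed in direction between cell types. Over all cells, 19 of its 20 measured genes were lower and none was higher, with a median log2 ratio of -2.09 against 0.04 over all genes. In Monocytes 13 of 15 were lower (median -1.26 against -0.05), in Mono/TAM IFN 14 of 20 (-0.88 against 0.22), and in Mono/TAM Hypoxic 13 of 16 (-1.78 against 0.06). Immature TAM-1 differed, with 8 of 20 genes higher, 2 lower and a median of 0.42, where the median over all genes was 0.00. With the 4 types at equal weight, 4 of 20 were lower and the median was -0.25. Without cells that carried a lymphocyte UMI, 11 of 19 were higher in Immature TAM-1 and 2 lower (median 0.73). In each type the share of all measured genes that were higher or lower was 14.2% and 16.4% in Immature TAM-1, 7.13% and 10.3% in Monocytes, 26% and 8.52% in Mono/TAM IFN, and 15.3% and 10.5% in Mono/TAM Hypoxic. The median over all genes of Mono/TAM IFN was shifted to 0.22, so ratios there are read against that value.

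Cxcl9 carried the contrast most clearly. In Immature TAM-1 it stood at 2852 CPM in LLC against 1048 in B16, 2.72-fold higher (2.55 to 2.9). It was lower in the other types, at 2.06 against 15.3 CPM in Monocytes, 189 against 434 in Mono/TAM IFN and 31.6 against 143 in Mono/TAM Hypoxic. The 76 LLC cells named Immature TAM-1 held 40.0% of the Cxcl9 UMIs of the library, and 71.1% of them carried at least 1. In B16, TAM-1 held 74.8% of the Cxcl9 UMIs, at 1388 CPM. The library of floxed mice had 2801 CPM in its 25 Immature TAM-1 cells. Without cells that carried a lymphocyte UMI, which left 60 of 158 B16 cells in Mono/TAM IFN, the Cxcl9 ratio of that type turned to 1.77 on the log2 scale.

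Gbp2, a guanylate-binding protein that acts against intracellular microbes, was higher in the same type as Cxcl9 and lower in the other 3. Immature TAM-1 had 1046 CPM in LLC against 529.8 in B16, 1.97-fold higher (1.78 to 2.19). Mono/TAM IFN had 246 against 446 CPM, Monocytes 29.8 against 94.2 CPM, and Mono/TAM Hypoxic 23.4 against 149 CPM. Serpina3g, an interferon-induced protease inhibitor, was 2.0-fold higher in Immature TAM-1 (1.56 to 2.53) and 3.79-fold lower in Mono/TAM IFN (2.81 to 5.12). Acod1, which makes itaconate, was at 232 against 58.8 CPM in Immature TAM-1 and at 3.81 against 47.7 CPM in Mono/TAM Hypoxic. Not every gene of the list turned. Il18bp, the soluble decoy of IL-18, was lower in all 3 types where it was measured, Immature TAM-1 among them (30.2 against 69.6 CPM). Irgm2 was also lower in Immature TAM-1 (15.1 against 26.4 CPM, from few UMIs). Irf1, the transcription factor upstream of many of these genes, was 2.86-fold lower in Monocytes (2.36 to 3.48) and between the bounds in Immature TAM-1, at 229 against 161 CPM.

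**Figure D3:**
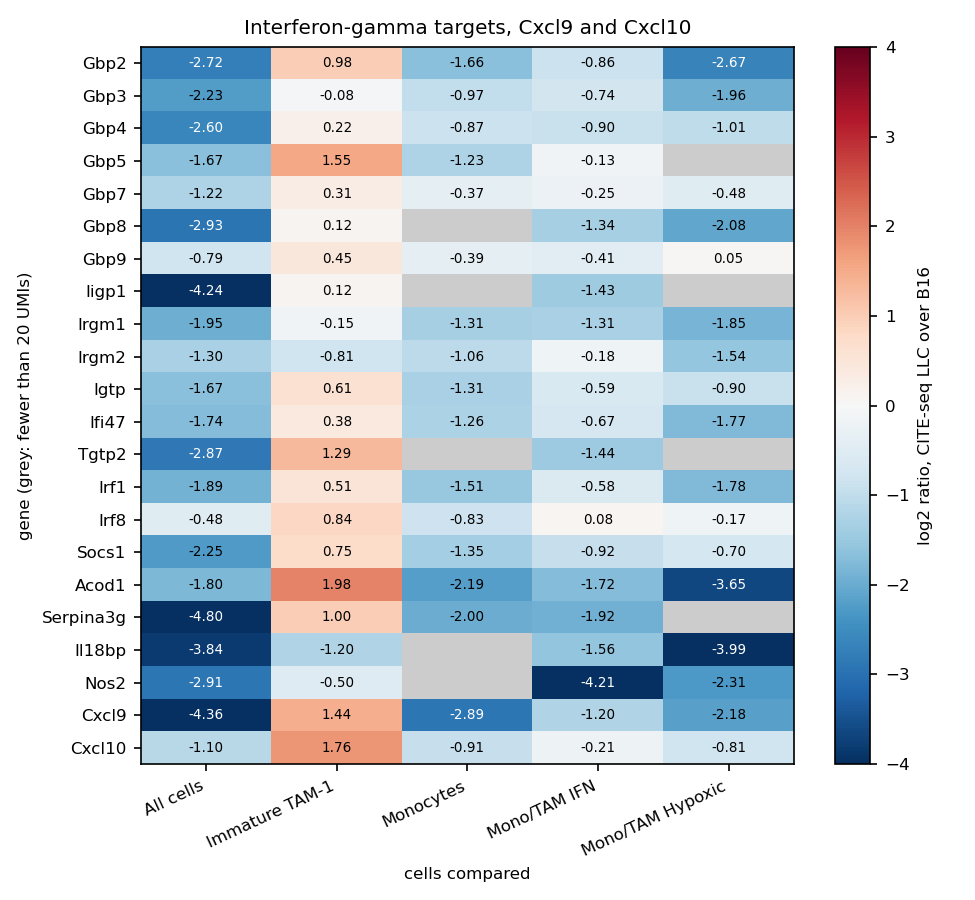
Log2 ratio (CITE-seq LLC over B16) of each interferon-gamma target and of Cxcl9 and Cxcl10 over all cells and in the 4 shared cell types, with grey for fewer than 20 UMIs. The Cxcl9 cells read -4.36 over all cells, 1.44 in Immature TAM-1, -2.89 in Monocytes, -1.20 in Mono/TAM IFN and -2.18 in Mono/TAM Hypoxic.

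Single chemokines went both ways in Immature TAM-1. Cxcl10, a CXCR3 ligand like Cxcl9, was 3.39-fold higher there, at 2285 against 674 CPM. Ccl3, Ccl4 and Ccl5, which attract leukocytes, were lower there, with Ccl4 at 20.2 against 222 CPM, 11-fold (5.58 to 25.6). Ccl4 was lower in every type, down to a 1.67-fold difference in Monocytes (1.36 to 2.07). Ccl8 was counted as higher in Immature TAM-1 (111 against 70.9 CPM), but 1 LLC cell held 37 of its 44 UMIs, and without the highest cell of each library the log2 ratio was -1.60.

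Genes of the type I interferon response differed less. In Mono/TAM IFN, the type defined by them, 12 of 31 were lower and none was higher (median -0.52 against 0.22). Rsad2, the antiviral protein viperin, was at 979 CPM in LLC against 2544 in B16, and Isg15, a ubiquitin-like modifier, at 622 and 1465 CPM. Both are markers of this type, so the name and their level in it are not independent. Ifit1 was between the bounds, at 648 against 898 CPM. Mono/TAM Hypoxic had the widest gap, with 23 of 29 genes lower (median -1.08), among them Isg15 at 44.1 against 235 CPM. Immature TAM-1 had 3 higher and 3 lower of 30 (median -0.05), and Monocytes 9 lower of 30 (median -0.42). The Ifi200 DNA sensors, whose genes lie in 1 cluster on chromosome 1, were lower in 8 of 12 genes in Mono/TAM IFN and 9 of 11 in Mono/TAM Hypoxic, and in 2 of 11 in Immature TAM-1 and 3 of 11 in Monocytes. The shares of all measured genes that were lower were 8.52%, 10.5%, 16.4% and 10.3% in the same order. In Immature TAM-1 the lower counts of both lists were near or under that share, and 14.2% of all genes were higher.

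The classical MHC class II chains were lower in LLC in every shared type. In the whole list, 4 of 11 genes were lower in Immature TAM-1, 7 of 11 in Monocytes, 4 of 12 in Mono/TAM IFN and 5 of 9 in Mono/TAM Hypoxic. The shares of all measured genes that were lower were 16.4%, 10.3%, 8.52% and 10.5% in the same order. Without cells that carried a lymphocyte UMI, 2 of 10 were lower in Immature TAM-1, which is near the 16.4% of all genes with every cell kept. H2-Aa, the alpha chain of I-A, stood at 3358 CPM in LLC against 5534 in B16 within Immature TAM-1, 1.65-fold lower (1.56 to 1.74). The fold was 2.08 in Monocytes (506 against 1054 CPM), 2.36 in Mono/TAM IFN (1479 against 3493 CPM) and 3.21 in Mono/TAM Hypoxic (752 against 2413 CPM). H2-Ab1 and H2-Eb1, the other classical chains, were lower in all 4 types as well. In Immature TAM-1 both lay near the bound, at 1.53-fold (1.45 to 1.61) and 1.55-fold (1.46 to 1.65). Cd74, the invariant chain, was 2.26-fold lower in Mono/TAM Hypoxic and between the bounds in Immature TAM-1. Ciita, which drives these genes, was lower in Monocytes (17.5 against 44.2 CPM) and between the bounds in the other types. In Monocytes the difference depended on which B16 cells were taken. Against the B16 cells annotated as classical monocytes alone, described below, the log2 ratios were -0.13 for H2-Aa, -0.09 for H2-Ab1 and 0.075 for H2-Eb1, where all B16 Monocytes gave -1.06, -0.95 and -0.97. H2-DMa, a peptide-loading chaperone, was between the bounds in all 4 types. In the floxed LLC library H2-Aa was lower still, at 2769.6, 309, 932 and 438 CPM in the same order of types.

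The tags of the CITE-seq cells give the protein order within LLC, with no B16 counterpart because none of its cells had a tag UMI. The I-A/I-E tag averaged 136 per 1000 tag UMIs of a cell in Immature TAM-1, 62.4 in Mono/TAM IFN, 34.7 in Mono/TAM Hypoxic and 21.4 in Monocytes, and at 91.5 in TAM-3. The H2-Aa RNA of the LLC cells followed the same order over the 4 shared types. The Ly6A/E tag, for Ly6a, was highest in Mono/TAM IFN (14.8) and Immature TAM-1 (12.2), and it stood at 2.90 in Monocytes. The folate receptor beta tag stood at 27.6 in TAM-4 and 0.81 in Monocytes. The CD36 tag did not follow its RNA. It was highest in Monocytes (3.29), where Cd36 RNA stood at 26.0 CPM. In LLC TAM Hypoxic the tag was at 0.60, under the highest isotype control there (0.90), with the RNA at 135 CPM. The CD106 tag, for Vcam1, was at 0.91 over all cells, close to the highest of 9 isotype controls (0.84), and CD200 was at 0.11, below it.

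MHC class I genes were lower more often than all genes in the shared types other than Immature TAM-1. Over all cells 17 of 18 were lower, while 3 of 18 were lower in Immature TAM-1, 7 in Monocytes, 7 in Mono/TAM IFN and 14 in Mono/TAM Hypoxic. Of all measured genes, 11% were lower over all cells, and 16.4%, 10.3%, 8.52% and 10.5% in these types in that order. The count in Immature TAM-1 was near the share over all genes. With the 4 types at equal weight 6 of 18 were lower, and against classical B16 monocytes alone 3 were higher and 3 lower in Monocytes (median -0.15). H2-T23, which encodes the non-classical molecule Qa-1, was lower in all 4 types, from 1.57-fold in Immature TAM-1 (262 against 410.2 CPM) to 2.37-fold in Mono/TAM Hypoxic (113 against 268 CPM). B2m, the shared light chain, was 2.57-fold lower in Mono/TAM Hypoxic and 2.03-fold lower in Mono/TAM IFN, and between the bounds in the other types.

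**Figure D4:**
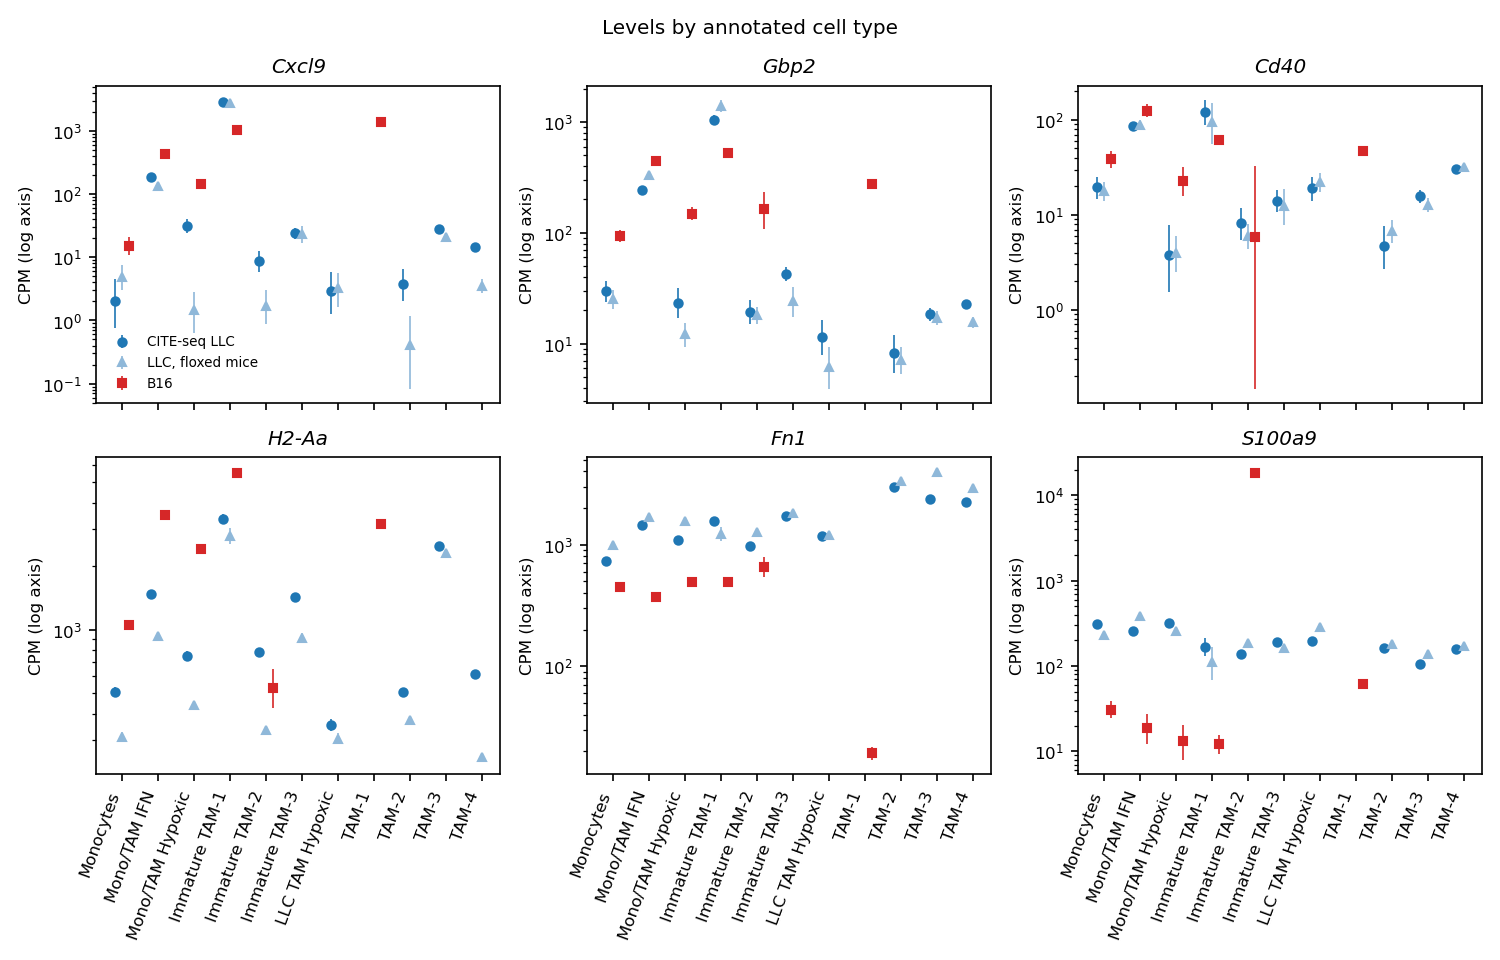
Level (CPM, log axis, points with exact 95% Poisson intervals) of Cxcl9, Gbp2, Cd40, H2-Aa, Fn1 and S100a9 by annotated cell type in the CITE-seq LLC library, the LLC library of floxed mice and B16, for cell types with at least 20 cells in a library. Cxcl9 peaks in Immature TAM-1 of LLC (2852 CPM) and in TAM-1 of B16 (1388 CPM), and H2-Aa is above LLC in B16 in each of the 4 shared types.

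Few genes kept 1 direction through all shared types. Of 7407 genes measured in all 4, 34 were higher in each (0.459%) and 33 lower in each (0.446%), and 754 were higher in at least 1 type and lower in another. The 4 comparisons share both libraries and are not independent of each other. S100a9 and S100a8, which form calprotectin, led the higher genes. S100a9 stood at 169 against 12.2 CPM in Immature TAM-1, 307 against 30.9 in Monocytes, 256 against 18.8 in Mono/TAM IFN and 323 against 13.1 in Mono/TAM Hypoxic. Both are also in the neutrophil marker list, which summed to 345 against 75.3 CPM, 816 against 239, 555 against 123 and 837 against 234 in the same order. Of its measured genes, 2 of 4 were higher in Immature TAM-1 and 4 of 6 in Monocytes. In Mono/TAM IFN 5 of 7 were higher and in Mono/TAM Hypoxic 5 of 6, with none lower in any of these types. The shares of all measured genes that were higher were 14.2%, 7.13%, 26% and 15.3% in the same order. The granule genes Ngp and Camp of that list were at 0 in all of these. In the LLC cells of Immature TAM-1, S100a8 at 121 and S100a9 at 169 made up much of the 345 CPM. Whether neutrophil RNA contributed was not tested. Over all cells S100a9 was even, at 172 and 168 CPM. There a single B16 cell, annotated Immature TAM-2, held 3133 of the 4165 S100a9 UMIs and 2526 of the 3330 S100a8 UMIs, and B16 without it stood at 41.7 CPM for S100a9.

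Fn1 was higher in all 4 types, from 1.63-fold in Monocytes (1.52 to 1.75) to 3.96-fold in Mono/TAM IFN (3.62 to 4.36). Its values were 736 against 451 CPM in Monocytes and 1459.8 against 368 CPM in Mono/TAM IFN. Cfp, which encodes the complement stabiliser properdin, was 1.53-fold to 1.86-fold higher. Mcemp1, Klf7, Pmvk and Uck2 completed the 8 genes that passed the naming rule. Klf7 is a transcription factor, Pmvk a kinase of sterol synthesis and Uck2 a kinase of pyrimidine salvage. Some of these calls were lost in 1 type under another setting. Mcemp1 was at 0.17 on the log2 scale in Monocytes against classical B16 monocytes alone and at 0.55 in Mono/TAM IFN without cells that carried a lymphocyte UMI. With cells thinned to 2000 UMIs, Klf7 was at 0.46 and Uck2 at -0.073 in Mono/TAM IFN. The Uck2 interval in Immature TAM-1 reached 1 (1.61-fold (0.998 to 2.49)). Among the named lower genes other than the MHC genes, Cd36, a scavenger receptor for lipids, had 1 UMI in the LLC Immature TAM-1 cells and stood at 54.4 against 243 CPM in Mono/TAM Hypoxic. Lipa, the lysosomal acid lipase, was 1.69-fold to 3.94-fold lower. Ly6a, an interferon-inducible surface protein, stood at 511 against 850.5 CPM in Immature TAM-1 and 28.8 against 210.0 CPM in Mono/TAM Hypoxic. Clec12a, an inhibitory lectin receptor, was 1.69-fold to 3.64-fold lower, and the tetraspanin Tspan13 1.64-fold to 2.66-fold. Against classical B16 monocytes alone, the Monocytes ratio changed sign for Fn1 (-0.31), Cfp (-0.042), Cd36 (3.46), Ly6a (0.16) and H2-Eb1 (0.075) on the log2 scale.

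**Figure D5:**
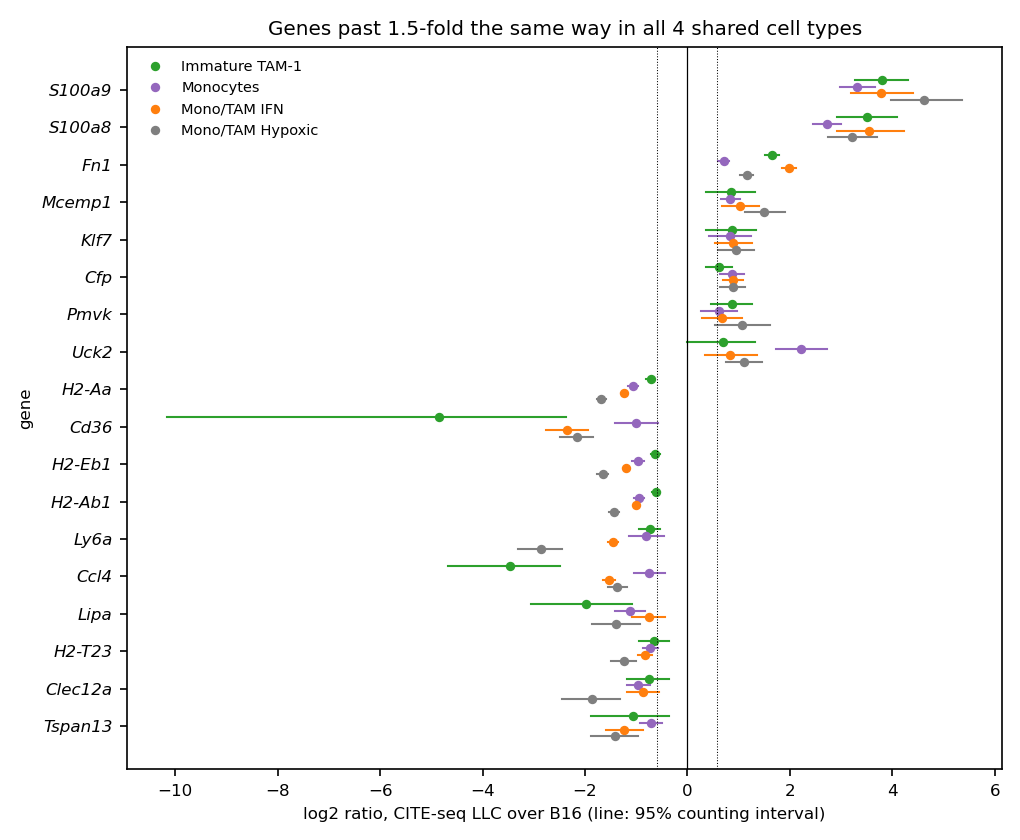
Log2 ratio (CITE-seq LLC over B16) with the 95% counting interval in each of the 4 shared cell types for the 18 named genes past 1.5-fold the same way in all 4, with dotted lines at 1.5-fold. S100a9 lies between 3.31 and 4.62, and the long line of Cd36 in Immature TAM-1 comes from its 1 LLC UMI.

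Immature TAM-1 of LLC differed in more than interferon targets. Its named higher genes were S100a9, S100a8, Ccl24, Fcrls and Upp1. Upp1, a uridine phosphorylase, was at 287 against 68.5 CPM, 4.2-fold (3.37 to 5.19). Ccl24, an eosinophil chemokine, was at 959.9 against 115 CPM, but 1 cell held 52.5% of the LLC UMIs and 1 cell 54.9% of the B16 UMIs. Its named lower genes were Ccl4, Cd36, Ccl2, Lpl and Ccl3. Ccl2, the chemokine that recruits monocytes through CCR2, was at 343 against 1722 CPM, 5.03-fold lower (4.24 to 6.0). All 11 T cell markers were at 0 UMIs in these LLC cells, against a sum of 42.0 CPM in B16.

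In Monocytes 13 of 15 interferon-gamma targets were lower, and the named higher genes were Spp1, S100a9, S100a8, Thbs1 and Dab2. Spp1, osteopontin, was at 247 against 23.9 CPM, and Thbs1, thrombospondin-1, at 1038 against 221 CPM, 4.7-fold higher (4.29 to 5.15). Dab2, an endocytic adaptor, was 5.03-fold higher (3.42 to 7.63). The named lower genes were Fabp4, Hpgd, Gbp2, Pmaip1 and Irf1. Fabp4 carries fatty acids and Hpgd breaks down prostaglandins. The monocyte makeup differed between the libraries. An annotation of B16 alone named 277 of its 396 Monocytes Mono-NC, read here as non-classical, and 114 Mono, read as classical, and no such split was given for LLC. Against the 114 classical cells, the log2 ratio of Hpgd was -0.01 instead of -1.62, that of Fabp4 1.62 instead of -2.13, that of Cd36 3.46 instead of -1.0 and that of Fn1 -0.31 instead of 0.71. The non-classical list changed from 8 of 13 genes lower (median -0.74) to 10 of 13 higher (1.30), and the MHC class II list from 7 of 11 lower to 1 of 9 lower. With all B16 Monocytes, 7.13% of all measured genes were higher and 10.3% lower. The interferon-gamma list still had 9 of 12 genes lower (median -1.07), and Spp1, S100a9 and Dab2 had log2 ratios of 2.80, 4.56 and 3.10.

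In Mono/TAM IFN, hypoxia genes and part of the lipid genes were lower in LLC, and the named higher genes were S100a9, Fcrls, S100a8, Pmepa1 and Cx3cr1. Cx3cr1, the fractalkine receptor, was at 193 against 27.8 CPM, 6.94-fold higher (5.0 to 9.93). Fcrls, an Fc receptor-like gene, was at 74.2 against 3.76 CPM, and Pmepa1, a feedback inhibitor of TGF-beta signalling, at 143 against 12.8 CPM. Inhba, the activin A subunit, was at 2.51 against 83.4 CPM, 33.2-fold lower (17.9 to 68.4). Nos2, the inducible nitric oxide synthase, was at 6.17 against 114 CPM, and Gpnmb, a lysosomal glycoprotein, at 16.9 against 204 CPM. Hspb1 was also among the named lower genes, but 1 B16 cell held 181 of its 200 UMIs and the log2 ratio without the highest cells was -1.57. Of 26 hypoxia and glycolysis genes, 16 were lower and none higher (median -0.65 against 0.22). The shares of all measured genes in this type were 8.52% lower and 26% higher. Of 18 TREM2 and lipid-handling genes, 9 were lower and 3 higher, with the receptor Trem2 itself higher (330.1 against 129 CPM) and the lipid droplet coat Plin2 lower (337 against 1190.2 CPM). Hilpda, a lipid droplet protein induced by hypoxia, was at 146 against 768 CPM.

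Mono/TAM Hypoxic showed no such difference in the genes that define it. Among all measured genes of this type 10.5% were lower and 15.3% higher. Of 25 hypoxia and glycolysis genes 2 were lower and none higher (median -0.18), with Vegfa, the angiogenic factor, at 436 against 461 CPM. The list includes the 8 markers of this type, so the name and their level in it are not independent. Il1r2, the decoy receptor for IL-1, was at 186 against 29.7 CPM, 6.25-fold higher (4.54 to 8.79). Ifitm1, an interferon-inducible membrane protein, was at 1145 against 227 CPM. Ccl24 was 5.9-fold higher (4.51 to 7.84), with 1 cell holding 65.6% of its B16 UMIs. Ccl8 was at 4.35 against 89.8 CPM, 20.6-fold lower (10.2 to 48.8), and Ccl5 at 16.3 against 143 CPM. Cd200, an inhibitory ligand for myeloid cells, was at 3.81 against 82.2 CPM. Npy, neuropeptide Y, was at 2.18 against 77.4 CPM, from 4 UMIs in LLC and 112 in B16, of which 1 cell held 43.8%.

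Cd40 was higher in Immature TAM-1 and lower in Mono/TAM Hypoxic, and in Monocytes its call depended on which B16 cells were taken. In Immature TAM-1 it was 1.99-fold higher (1.44 to 2.7), at 121 against 60.9 CPM. Monocytes had 19.5 against 38.3 CPM, 1.96-fold lower (1.4 to 2.77), but the log2 ratio was -0.48 against classical B16 monocytes alone, which is between the bounds. Mono/TAM Hypoxic had 3.81 against 22.8 CPM, 5.99-fold lower (2.6 to 16). Mono/TAM IFN was between the bounds, at 85.9 against 125 CPM. In descending order the shared types stood as Immature TAM-1, Mono/TAM IFN, Monocytes and Mono/TAM Hypoxic in LLC, and as Mono/TAM IFN, Immature TAM-1, Monocytes and Mono/TAM Hypoxic in B16. The counting intervals of the first and second types overlapped in LLC, and those of the lowest 2 types in B16. TAM-1 of B16 was at 46.7 CPM, and TAM-4, TAM-3 and TAM-2 of LLC were at 30.2, 15.7 and 4.67 CPM. Of 17 measured genes of CD40 signalling and costimulation, 8 were higher and 2 lower in Immature TAM-1 (median 0.48). The shares of all measured genes there were 14.2% higher and 16.4% lower. Nfkb2, of the non-canonical pathway below CD40, was at 106 against 32.1 CPM there. The adaptors Traf1 and Traf2 were 2.15-fold and 2.21-fold higher there. In Monocytes 1 of 17 was higher and 1 lower, not above the 7.13% and 10.3% of all measured genes there. Against classical B16 monocytes alone 7 were higher and 2 lower (median 0.28). Cd80, a costimulatory ligand, was higher in all 4 types, from 1.73-fold in Mono/TAM Hypoxic to 2.09-fold in Monocytes.

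Complement and resident-like genes were more often higher than lower in every shared type. Of all measured genes, 26% were higher and 8.52% lower in Mono/TAM IFN, and 15.3% and 10.5% in Mono/TAM Hypoxic. These shares were 7.13% and 10.3% in Monocytes and 14.2% and 16.4% in Immature TAM-1. In Mono/TAM IFN 11 of 17 list genes were higher and 1 lower (median 0.82 against 0.22), and in Monocytes 10 of 15 and 1 (0.89). Immature TAM-1 had 6 of 17 and 1 (0.38), and Mono/TAM Hypoxic 6 of 15 and 1 (0.15). Without cells that carried a lymphocyte UMI, 3 of 15 were higher and none lower in Immature TAM-1. Mono/TAM Hypoxic then had 6 of 14 and 2 (median 0.006), Monocytes 11 of 14 and 1, and Mono/TAM IFN 12 of 17 and 2. Folr2, the folate receptor beta, was at 37.8 against 9.13 CPM in Immature TAM-1 and 94.6 against 25.5 in Mono/TAM IFN, and even in Mono/TAM Hypoxic (21.8 against 21.4). C1qa, a chain of the first complement component, was 2.27-fold higher in Mono/TAM IFN and between the bounds in Immature TAM-1 and Mono/TAM Hypoxic. Mrc1, the mannose receptor, was higher in the 3 types other than Immature TAM-1, at 189.6 against 82.7 CPM in Mono/TAM IFN. C3, the central complement protein, went the other way in Mono/TAM IFN, at 87 against 171 CPM. In the matrix, adhesion and protease list 13 of 21 were higher in Monocytes (8 of 21 against classical B16 monocytes alone) and 9 of 21 in Immature TAM-1. In Mono/TAM IFN 7 of 23 were higher and 5 lower, and the higher count is near the 26% of all measured genes there. Mmp9, a gelatinase, was at 11.9 against 2.25 CPM in Mono/TAM IFN, and Timp2, an inhibitor of such proteases, at 226 against 36.1 CPM. Ctsb, cathepsin B, was lower in 3 types, with 1669.7 against 3089.8 CPM in Mono/TAM IFN.

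Cell division genes were lower over all cells in 19 of 23, but with the 4 types at equal weight 9 were higher and 2 lower (median 0.42). Over all cells 11% of all measured genes were lower. Monocytes had 10 of 17 higher and none lower, where 7.13% of all measured genes were higher. Mono/TAM IFN had 7 higher and 2 lower of 16, with 26% and 8.52% of all genes. The list median in Mono/TAM IFN was 0.15, under the 0.22 of all genes. Immature TAM-1 had 5 higher and 4 lower of 16, with 14.2% and 16.4% of all genes, and a median log2 ratio of -0.32. Without cells that carried a lymphocyte UMI, Immature TAM-1 had 1 higher and 2 lower of 9 (median -0.46). Stmn1, a microtubule regulator of dividing cells, was at 37 against 122 CPM over all cells and at 41.1 against 11.7 CPM in Monocytes. Without cells that carried a lymphocyte UMI, 9 of 23 were lower over all cells.

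The matched strain bears on chromosome 1, where F11r lies. Of 77 measured genes that start within 5 Mb of the start of F11r, 11 were higher over all cells (14.3%) and 24 lower (31.2%). The shares over all measured genes were 9.93% and 11%. The lower genes of the region include 11 Ifi200 DNA sensors and several SLAM family genes, which are also counted in their own lists. The region was not counted within cell types. Slamf7, a SLAM family receptor, was lower in all 4 shared types, at 39.7 against 316 CPM in Mono/TAM IFN, and Fcgr4, an Fc receptor for IgG, was lower in 3, at 217 against 443 CPM in the same type. The third library differed here from both. Ifi202b had 0 UMIs in CITE-seq LLC and B16 and 165 CPM in the library of floxed mice, while Ifi206 (19.2 and 50.4 CPM) and Ifi213 (23 and 50.3 CPM) had 0 there. Slamf7 stood at 14.8, 147 and 1.66 CPM in CITE-seq LLC, B16 and floxed LLC over all cells, and Fcgr4 at 85.9, 609 and 100 CPM. F11r itself stood at 70.7, 46.9 and 91.0 CPM.

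The LLC libraries were set against each other under the same rules, as a yardstick chosen after seeing the data. CITE-seq LLC against floxed LLC had 3.03% of genes higher and 2.81% lower over all cells. The shares were 5.22% and 5.07% in Monocytes, 7.21% and 4.17% in Mono/TAM IFN, and 10.4% and 10.4% in Mono/TAM Hypoxic. The last of these is close to the 10.5% of genes lower against B16 in that type. Immature TAM-1 could not be compared this way, with 25 cells in the floxed library.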

How the data were processed

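The deposited tables hold the authors' UMI counts of RNA per gene and cell and of antibody tags per tag and cell, made with Cell Ranger and mm10 per the submitters' processing notes. The sources used here give no versions, sorting, filters or clustering steps. Libraries and cell types came from the deposited cell annotation. UMIs were summed over cells and divided by the summed total (CPM). With 1 library per group no test was possible. Ratios carry exact conditional binomial 95% intervals and shares Clopper-Pearson intervals, checked on simulated data, and they cover counting error only. A gene was measured at 20 or more UMIs over both libraries and a UMI in each whole library, and was called at 1.5-fold. A library at 0 was taken at a floor of 3 counts.

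Named genes were the 10 highest and 10 lowest over all cells and in all 4 types, and 5 each way per type, ranked by the interval bound nearest 1. They needed 50 CPM in the higher library. Mitochondrial, ribosomal, unnamed, immunoglobulin, T cell receptor, Y-linked and haemoglobin genes, Xist and Tsix were left out. Cd40 and list members are examples. The members and lists were chosen with earlier results of these data known. Promoters came from RefSeq (GRCm38.p6) and gene positions from GENCODE. Doublets were not called. A gene list is not reported here. Python 3.11.15, NumPy 2.4.6, SciPy 1.17.1, pandas 2.3.3 and matplotlib 3.10.9 were used.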

Additional observations from a re-analysis of the deposited data

Results flagged for a closer look

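In each of these genes the ratio in 1 shared cell type went against the ratios of the others. The difference between cell types was not tested, since there was 1 library per tumour. In Immature TAM-1, 7 genes stood against the other types with a call. The log2 ratio (CITE-seq LLC over B16) was 1.44 for Cxcl9, 0.98 for Gbp2, 1.0 for Serpina3g and 0.99 for Cd40, and no other shared type was higher in these 4 genes. Ccl8 was at 0.64 there, from 44 LLC UMIs of which 37 were in 1 cell. Inhba was at 2.85 there, from 12 UMIs in LLC (30.2 against 4.18 CPM), with 10 of its 22 B16 UMIs in 1 cell. In Monocytes, under the UMI minimum, Inhba had 13 UMIs in LLC and 2 in B16, which leans the same way as in Immature TAM-1. Lyz1 was at -2.65 in Immature TAM-1, from 1 UMI in LLC and 83 in B16, with 1 cell holding 60.2% of its B16 UMIs, and at 0.27 without the highest cells. In Mono/TAM IFN, Ccl24 was at -1.79 and Upp1 at -0.61, with no other shared type lower. For Ccl24, 1 cell held 50% of the LLC UMIs there and 1 cell 76.2% of the B16 UMIs.

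Outside the comparison, the LLC library of floxed mice held Ifi202b at 165 CPM, while the CITE-seq LLC and B16 libraries had 0 UMIs of it.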

How the results depend on the processing

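Counts moved most with the fold bound and the UMI minimum. Higher genes at a 2-fold bound numbered 499 over all cells, 385 in Immature TAM-1, 216 in Monocytes, 1036 in Mono/TAM IFN, 385 in Mono/TAM Hypoxic and 7 in all 4 types. Lower genes at that bound numbered 660, 639, 244, 278, 291 and 8 in the same order. A minimum of 100 UMIs gave 440, 214, 1003, 372 and 11 higher and 607, 338, 446, 293 and 19 lower genes in the 4 types and in all 4. A minimum of 5 gave 2603 higher genes in Immature TAM-1, 1082 in Monocytes, 1872 in Mono/TAM Hypoxic and 64 in all 4 types, and 1420, 1258 and 1456 lower genes in Monocytes, Mono/TAM IFN and Mono/TAM Hypoxic. Over all cells, cells of 4000 to 12000 UMIs gave 1759 higher genes, cells without T, NK or B cell UMIs 1818, and equal weights of the 4 shared types 831 lower genes. Classical B16 monocytes alone gave 1031 higher genes in Monocytes. In all 4 types, thinning to 2000 UMIs gave 14 higher and 21 lower genes, and leaving out cells with T, NK or B cell UMIs 16 higher.

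Log2 ratios between the bounds are left out here, such as that of S100a8 over all cells (-0.012, and 3.10 with equal weights). Of the ratios of named genes past 1.5-fold, these changed sign. Equal weights over all cells gave 0.91 for Cxcl9, 0.14 for Gbp2, -0.052 for Pdpn, 0.21 for Serpina3g, -0.048 for Spp1 and 0.39 for Vcam1. Classical B16 monocytes gave -0.35 for Cbr2, 3.46 for Cd36, -0.042 for Cfp, 1.62 for Fabp4, -0.31 for Fn1, 0.075 for H2-Eb1 and 0.16 for Ly6a. Without cells with T, NK or B cell UMIs, Upp1 over all cells was -0.13, Ccl8 in Immature TAM-1 -0.97, Ly6a in Monocytes 0.30, Cxcl9 and Lpl in Mono/TAM IFN 1.77 and 0.14, and Cox4i2 in Mono/TAM Hypoxic 0.13. Cells of 4000 to 12000 UMIs gave -0.15 for Upp1 over all cells and 0.23 for Clec4b1 in Immature TAM-1. Without each gene's highest cell, a step chosen after seeing the data, Immature TAM-1 gave -1.60 for Ccl8, 0.065 for Fabp4 and 0.27 for Lyz1. Thinning gave -0.073 for Uck2 in Mono/TAM IFN, and the floxed LLC library 0.34 for Nos2 in Mono/TAM Hypoxic. The cause of these changes was not tested. No such ratio past 1.5-fold changed sign with median-of-ratios scaling, reduced totals, means over cells or without neutrophil-marker cells. Immature TAM-1 was not run with the floxed library (25 cells). No paired analysis was possible because each tumour had 1 library and the result comes from no test. The 76 LLC cells of Immature TAM-1 hold few UMIs of low genes, which limits those values.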

Other observations

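Monocyte-attracting chemokines and suppressive genes had values of their own in the shared types. Ccl2 and Ccl7, both ligands of CCR2, were lower in LLC in Immature TAM-1, Mono/TAM IFN and Mono/TAM Hypoxic, with Ccl7 at 518 against 1694 CPM in Mono/TAM IFN and 281 against 799 CPM in Mono/TAM Hypoxic. Il1b, the inflammatory cytokine, was higher in Mono/TAM Hypoxic (1055 against 346 CPM), where Tnf was lower (14.7 against 44.9 CPM). Cxcl2, which attracts neutrophils, was higher in Monocytes (114 against 38.3 CPM). In the suppressive and checkpoint list 6 of 14 genes were lower and 2 higher in Mono/TAM IFN. The shares of all measured genes in that type were 8.52% lower and 26% higher. Cd274, which encodes PD-L1, was at 87 against 273 CPM there, and Il1rn, the IL-1 receptor antagonist, at 211 against 871 CPM. In Monocytes 5 of 13 were higher and none lower, with Arg1, arginase-1, at 49.7 against 14.1 CPM. All measured genes of Monocytes were higher in 7.13% and lower in 10.3%.

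Iron and stress genes also differed by type. In Mono/TAM IFN 8 of 16 haem, iron and oxidative stress genes were lower and none higher, with Hmox1, which breaks down haem, at 281 against 759 CPM. The shares of all measured genes in that type were 8.52% lower and 26% higher. In Monocytes none of 14 was past the bound either way. Genes induced by tissue dissociation were lower in 8 of 16 in both Immature TAM-1 and Mono/TAM IFN, against 16.4% and 8.52% of all measured genes. The heat shock gene Hspa1a was at 86.3 against 336 CPM in Mono/TAM IFN, and the early response gene Zfp36 at 189 against 453 CPM in Immature TAM-1. Whether sample handling contributed to these differences was not tested.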
